A study of Rattus norvegicus with 9 samples.

Results

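The miRNAs of control neonatal rat cardiomyocytes were described from the 3 Ad-GFP libraries of a study with 9 small RNA libraries. The study used adenovirus to raise or silence Yap, a co-activator of transcription held in check by Hippo signalling, and the Ad-GFP cultures were its control. The 653 annotated miRNAs are the entries of the deposited table whose identifiers carry the rat prefix rno-, out of 1422 entries in all; the other 769 are predicted miRNAs. The Yap libraries were not used, and no groups were compared.

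The Ad-GFP cells came from enzyme-digested hearts of SD rats aged 1 to 2 days, had the genotype label WT, were grown in serum-containing medium, and were collected 48 h after an adenovirus carrying green fluorescent protein. A culture without virus was not analysed here. Each library is a bulk culture, so the RNA includes whatever non-muscle heart cells remained, and a low level of a miRNA in such a sample can mean fewer cells of a type or less RNA per cell, which cannot be told apart. The labels number the replicates without saying whether they are separate isolations, so each SD measures how far the 3 libraries differ, and that spread may be purely technical.

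A miRNA is cut from a hairpin precursor by the nucleases Drosha and Dicer, which leaves a duplex of its 5p and 3p arms. Usually 1 arm is kept in an Argonaute protein and the other is degraded, and the kept arm finds messenger RNAs mainly through its seed, bases 2 to 8 from the 5′ end, so miRNAs with the same seed form a family with overlapping targets. In heart muscle the best known members are miR-1 and miR-133a, made together from shared transcripts, and miR-208a, miR-208b and miR-499, which lie in introns of the myosin heavy chain genes Myh6, Myh7 and Myh7b. Fibroblasts, smooth muscle and endothelial cells have their own well known miRNAs, among them miR-199a, miR-143 and miR-126a.

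The sequences below are mature miRNAs from RefSeq (GRCr8), 5′ to 3′, with the seed in capitals. RefSeq held a sequence for 586 of the 653 annotated miRNAs, which carried 93.0% of their reads. First come the let-7 family members, shown because together they held the largest share of reads of any family examined.
let-7a-5p: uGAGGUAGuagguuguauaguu
let-7b-5p: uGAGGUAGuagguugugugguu
let-7c-5p: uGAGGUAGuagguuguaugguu
let-7d-5p: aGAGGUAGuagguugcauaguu
let-7e-5p: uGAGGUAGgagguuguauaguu
let-7f-5p: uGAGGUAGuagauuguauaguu
let-7g-5p: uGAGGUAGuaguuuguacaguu
let-7i-5p: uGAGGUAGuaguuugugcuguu
miR-98-5p: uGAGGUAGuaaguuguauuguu

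Next are the striated muscle miRNAs, shown because they identify the cells and because the arms of miR-208a were used very unequally.
miR-1-3p: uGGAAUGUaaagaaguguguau
miR-1b: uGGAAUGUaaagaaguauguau
miR-206-3p: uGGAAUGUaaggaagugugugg
miR-133a-3p: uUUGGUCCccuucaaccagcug
miR-499-5p: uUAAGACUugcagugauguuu
miR-208a-5p: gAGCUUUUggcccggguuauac
miR-208a-3p: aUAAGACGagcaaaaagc

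The highest entries outside these groups and the most abundant markers of other heart cells follow.
miR-22-3p: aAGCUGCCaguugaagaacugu
miR-26a-5p: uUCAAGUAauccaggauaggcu
miR-21-5p: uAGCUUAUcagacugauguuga
miR-199a-5p: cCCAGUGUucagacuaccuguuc
miR-143-3p: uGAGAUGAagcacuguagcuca
miR-126a-3p: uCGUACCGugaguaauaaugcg

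The last set holds entries that are complementary to another annotated entry over nearly their whole length, shown because the entries that differed most between libraries were among those with such a partner. Read backwards with bases paired, miR-3596a matches let-7a-5p, miR-133c matches miR-133a-3p, miR-3588 matches miR-125b-5p, miR-3578 matches miR-369-5p, and miR-3557-5p matches miR-378a-3p.
miR-3596a: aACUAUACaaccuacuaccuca
miR-133c: cAGCUGGUugaaggggaccaa
miR-125b-5p: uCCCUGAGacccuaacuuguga
miR-3588: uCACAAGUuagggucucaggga
miR-369-5p: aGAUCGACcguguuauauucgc
miR-3578: gCGAAUAUaacacggucgaucu
miR-378a-3p: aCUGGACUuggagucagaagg
miR-3557-5p: gCCUUCUGacuccaaguccagu

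The 3 libraries were of nearly equal depth, with 3461500, 3463759 and 3352435 reads in annotated miRNAs for replicates 1, 2 and 3. Levels are given as deposited reads, or as CPM, which here means reads per 1e+06 annotated miRNA reads of the same library, so that 1 read is worth 0.289 to 0.298 CPM. In all pairs of libraries the counts differed by more than sampling noise, with a chi-square of 89.3 to 587 per degree of freedom, so none is a copy of another. Single entries weigh heavily in this statistic, such as let-7a-5p with 97442, 2646 and 98745 reads in replicates 1, 2 and 3. It does not measure a general difference between libraries. Across annotated miRNAs, which are not independent replicates, Spearman's rho between libraries was 0.975 for replicates 1 and 3, 0.955 for replicates 1 and 2 and 0.947 for replicates 2 and 3. Replicate 2 therefore stood slightly apart, and results that turn on it are given library by library.

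Most annotated miRNAs were detectable, and a small number carried most of the reads. Of 653 entries, 541 had at least 1 read in each library, 416 at least 10, 290 at least 100 and 151 at least 1000. A further 25 had 0 reads in all 3 libraries, which allows each a level of up to 0.867, 0.866 and 0.895 CPM in replicates 1, 2 and 3 (a floor of 3 reads, counting error only). Those 25 include both arms of miR-217, a miRNA best known from the pancreas, and the minor arms miR-124-5p, miR-150-3p, miR-196a-3p, miR-449a-3p and miR-96-3p.

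The top of the distribution was flat rather than led by 1 miRNA. The most abundant entry held 3.22 ± 0.0709% of annotated reads (SD, n = 3, as for all means below), the 10 most abundant of each library 28.2 ± 0.437%, the 25 most abundant 58.8 ± 0.393% and the 100 most abundant 94.8 ± 0.180%. It took 21, 21 and 20 entries to reach 50% of the reads in replicates 1, 2 and 3. The first entry had 1.25 ± 0.0319 times the reads of the tenth and 1.67 ± 0.0422 times those of the 20th, but 34.8 ± 2.02 times those of the 100th. The 326 lowest entries of each library together held 0.122%, 0.112% and 0.121% of the reads.

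**Figure D1:**
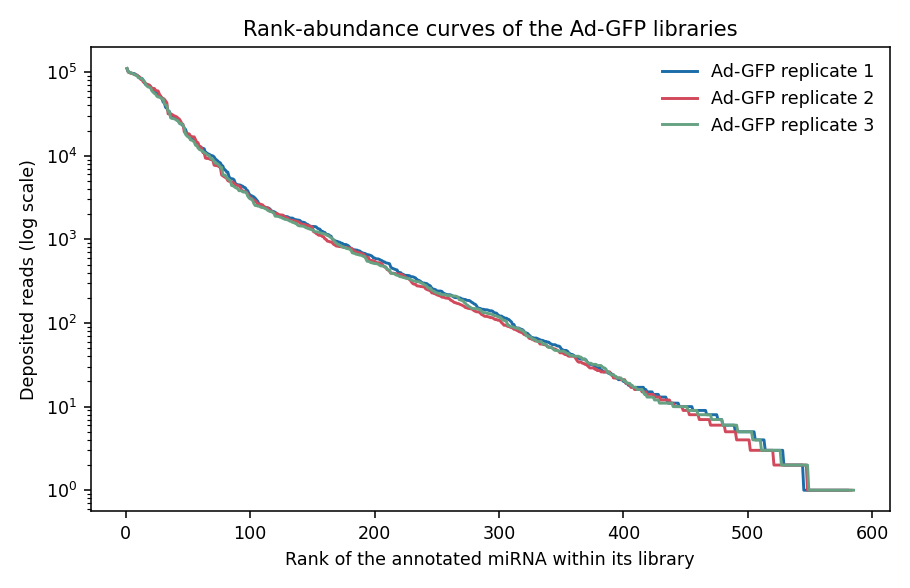
Deposited reads of each annotated miRNA (vertical axis, log scale) against its rank within its own library (horizontal axis), 1 line per Ad-GFP library, entries with at least 1 read. The 3 lines lie nearly on each other: a plateau over the first ranks, from 110698 reads at the highest point, then a steep drop, with the 100th entry 34.8 times below the first on average.

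miR-22-3p, a miRNA abundant in heart and skeletal muscle, was the highest annotated entry, with 110004, 110172 and 110698 reads, or 32202 ± 709 CPM. Its libraries did not overlap with those of the next entry, miR-26a-5p, at 29201 ± 275 CPM. Behind it came let-7c-5p at 29010.4 ± 814 CPM, miR-99a-5p at 28155 ± 327 CPM, miR-3557-5p at 28028 ± 548 CPM, let-7f-5p at 27313 ± 594 CPM, miR-21-5p at 27201 ± 582 CPM and let-7i-5p at 26838 ± 292 CPM. Every neighbouring pair from miR-26a-5p to let-7i-5p overlapped between libraries, so the order of neighbours is not resolved. Entries further apart separated: of the 21 pairs among these 7 entries, 11 did not overlap. In all libraries miR-26a-5p and let-7c-5p lay above let-7f-5p, miR-21-5p and let-7i-5p. The order changed when complementary entries were summed. miR-3557-5p with miR-378a-3p then lay above miR-22-3p by mean, at 36305 ± 11489 CPM. Only in replicate 2 was it higher, with 171486 reads against 110172. let-7a-5p with miR-3596a ranked 4th, at 29152 ± 1074 CPM.

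miR-499-5p, encoded within the slow myosin gene Myh7b, was the ninth entry and the highest single muscle entry. It had 85644, 88529 and 85779 reads or 25296 ± 480 CPM, and was separated from let-7i-5p above it without overlap. miR-1-3p and miR-1b, which differ at 1 base, together held more, 4.07 ± 0.234% of annotated reads against 2.53 ± 0.0480% for miR-499-5p. Of the 24 neighbouring pairs among the 25 highest means, 21 overlapped, and the remaining separation lay between let-7g-5p at 21274 ± 231 CPM and miR-181a-5p at 20364 ± 171 CPM. Of these 25 entries, 22 were among the 25 highest in every library, so membership at the top was better determined than the order.

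**Figure D2:**
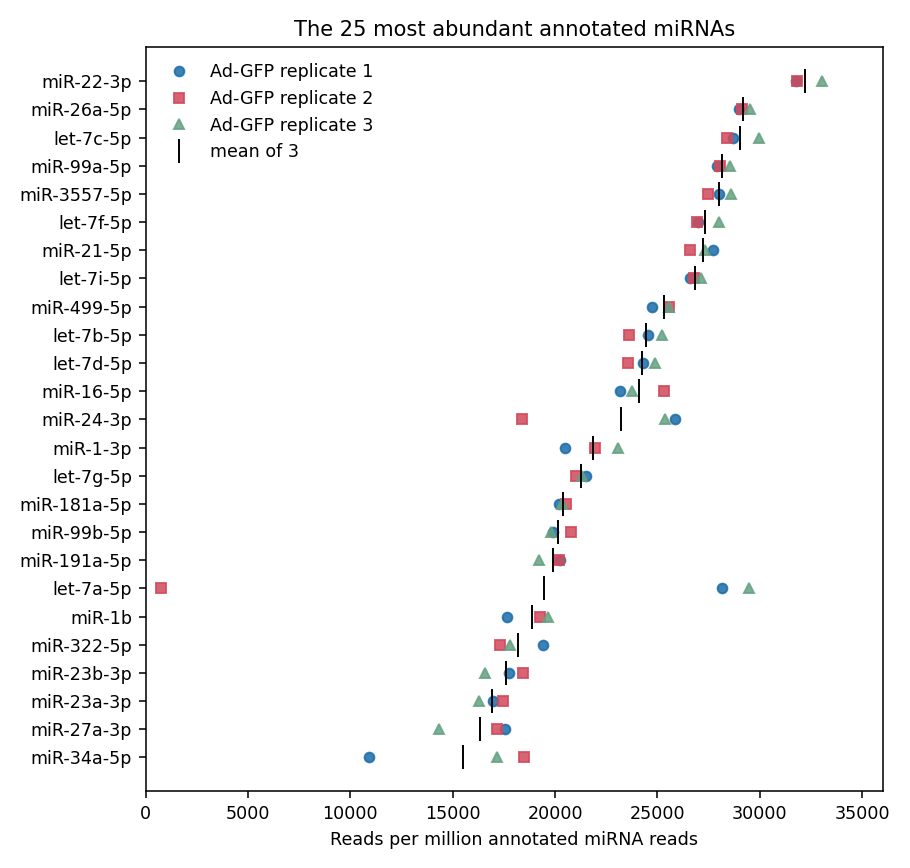
Reads per 1e+06 annotated miRNA reads (horizontal axis) of the 25 entries with the highest means, ordered by mean; circles, squares and triangles are replicates 1, 2 and 3 and the bar is their mean. Most entries have 3 points close together, while let-7a-5p in replicate 2 lies at 764 CPM, far left of its other values, and miR-24-3p and miR-34a-5p each have 1 library apart.

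The other entries of the top 25 belong to a few families and clusters. miR-16-5p, a regulator of cell cycle genes, averaged 24095 ± 1116 CPM, and miR-322-5p, a rodent miRNA with the same seed, 18168 ± 1089.5 CPM. miR-23b-3p averaged 17585 ± 939 CPM and miR-23a-3p 16900.5 ± 587 CPM, and share a seed although they come from different clusters. miR-99b-5p stood at 20155 ± 536 CPM and miR-191a-5p at 19889 ± 568 CPM.

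A pair of entries in the top 25 without a complementary partner had 1 library well away from the others. miR-24-3p had 89487, 63678 and 85068 reads, lowest in replicate 2. miR-34a-5p, a transcriptional target of p53, had 37802, 63983 and 57469 reads, lowest in replicate 1. Their coefficients of variation were 18.0% and 26.0%, against a median of 9.64% over the 312 annotated entries with a mean of at least 100 reads.

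The let-7 family, whose members are low in pluripotent cells and accumulate as tissues differentiate, was the largest of the families examined. Its 9 members together held 20.6%, 17.5% and 21.1% of annotated reads in replicates 1, 2 and 3, or 19.8 ± 1.96%, with 95% Wilson intervals of 20.6 to 20.7%, 17.5 to 17.6% and 21.1 to 21.2% that cover counting error only. Every member had more than 1000 reads in each library. Apart from let-7a-5p, the members ranged from 29010.4 CPM for let-7c-5p to 9725 CPM for miR-98-5p, a 2.98-fold range.

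The let-7 sequences differ from each other at few positions, all outside the seed. Counted from the 5′ end of let-7a-5p, let-7c-5p differs by A19G, let-7e-5p by U9G, let-7f-5p by G12A, let-7b-5p by A17G and A19G, and let-7i-5p by 4 substitutions. The sources used here do not say how mismatches were treated in the counting. If each read was counted once, the family sum does not depend on how reads were split among the members. Whether reads matching several members were counted once is not stated.

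The lower share in replicate 2 sat in let-7a-5p. It had 97442 and 98745 reads in replicates 1 and 3 but 2646 in replicate 2, while its complementary entry miR-3596a had 584 and 3046 reads in replicates 1 and 3 but 97017 in replicate 2. Summed, the entries had 98026, 99663 and 101791 reads, with a coefficient of variation of 3.68%. Counting each partner with its let-7 member gave the family 21.3%, 20.9% and 21.8%, or 21.3 ± 0.467%. Without replicate 2, let-7a-5p averaged 28803 CPM rather than 19456 ± 16201 CPM.

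After let-7, the largest families by name were miR-99 with miR-100 at 6.35 ± 0.0973%, miR-15 with miR-16 at 4.42 ± 0.0830%, miR-23 at 3.45 ± 0.153%, miR-26 at 3.43 ± 0.0261% and miR-181 at 3.33 ± 0.0570%. In the miR-99 and miR-100 family, which is encoded beside let-7 and miR-125 genes, miR-99a-5p held 44.3% of the family's reads, miR-99b-5p 31.7% and miR-100-5p 23.9%. The miR-26 family was carried by miR-26a-5p, with 85.1%, and the miR-181 family by miR-181a-5p, with 61.2% against 24.7% for miR-181b-5p and 11.0% for miR-181c-5p.

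Families known from heart fibrosis and hypertrophy were present at lower shares. The miR-30 family, studied in cardiac remodelling through its target connective tissue growth factor, held 2.27 ± 0.314%, with miR-30b-5p at 9970 ± 765 CPM, miR-30d-5p at 6364 ± 979 CPM and miR-30a-5p at 2827 ± 523 CPM. The miR-29 family, known to repress collagen genes, held 0.583 ± 0.140%, led by miR-29a-3p with 15685, 9261 and 14598 reads. Both families were lowest in replicate 2, where miR-30c-5p had 5746 reads against 9955 and 10065, and miR-29c-3p had 1441 reads against 2393 and 2330.

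The family of miR-34 and miR-449 held 1.75 ± 0.394%, of which miR-34a-5p made up 88.7%. miR-221 with miR-222, which act on cell cycle inhibitors, held 0.895 ± 0.0631%, and miR-204 with miR-211 held 0.695 ± 0.00342%, nearly all from miR-204-5p. The miR-146 family, linked to inflammatory signalling, held 0.214 ± 0.0221%, and miR-103 with miR-107 0.137 ± 0.00171%. At the low end, the miR-10 family, here miR-10a-5p, held 0.0104 ± 0.000710% and the miR-101 family 0.0278 ± 0.00434%.

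Grouping by seed instead of by name gave 491 seeds among the 586 miRNAs with a sequence, of which 61 were shared by at least 2 entries. The 10 most abundant of these seeds held 50.9% of annotated reads. miR-99a-5p, the fourth entry by level with 2.82% of reads, has no sequence here and is in none of the seeds, so ACCCGUA of miR-99b-5p and miR-100-5p held 3.54 ± 0.101% without it. GAGGUAG of let-7 came first, AGCAGCA, shared by 5 entries led by miR-16-5p and miR-322-5p, held 4.41 ± 0.0828%, and GGAAUGU of miR-1-3p, miR-1b and miR-206-3p held 4.08 ± 0.234%. The names miR-1 and miR-206 alone held 2.19 ± 0.130%, and the difference is miR-1b, with 61142, 66752 and 65933 reads. miR-1b differs from miR-1-3p by G17A, and both entries were lowest in replicate 1.

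The members of a cluster are cut from a shared transcript, and some clusters gave their main members in nearly equal amounts while others did not. In the miR-1 and miR-133a cluster, miR-1-3p made up 60.8% and miR-133a-3p 39.0% of the reads. That difference depends on miR-133c, the complement of miR-133a-3p: counted together these entries had 21996 CPM, against 21829 CPM for miR-1-3p. miR-133c is also complementary to miR-133b-3p, over 20 bases, so its reads cannot be credited to miR-133a-3p alone. The difference also depends on miR-1b, which is in neither value and had 18867 ± 1061 CPM. miR-1-3p and miR-1b together held 4.07 ± 0.234% of annotated reads, against 2.22 ± 0.0362% for the miR-133 family with miR-133c. The cluster of miR-322, miR-503, miR-351, miR-542 and miR-450a, which lies on the X chromosome in rodents, summed to 33671 ± 1635 CPM, with miR-322-5p at 54.0%, miR-542-5p at 25.4% and miR-450a-5p at 14.3%. In the miR-17 to miR-92a-1 cluster, known for promoting proliferation, miR-92a-3p averaged 2536 ± 105 CPM, miR-20a-5p 1158 ± 73.4 CPM and miR-17-5p 424 ± 87.6 CPM, while miR-19a-3p averaged 10.3 ± 4.0 CPM.

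A pair of clusters encodes miR-23 and miR-27 together with the shared miR-24-3p, and both were strongly represented. The cluster with miR-23a summed to 36385 ± 1974 CPM and the cluster with miR-23b to 30484 ± 1531 CPM, each without miR-24-3p, which both encode. miR-23a-3p and miR-27a-3p were nearly equal, at 46.4% and 44.9% of the cluster with miR-23a, while miR-23b-3p made up 57.7% and miR-27b-3p 40.8% of the other. miR-27a-3p averaged 16340 ± 1758 CPM and miR-27b-3p 12432 ± 583 CPM. The imprinted Dlk1-Dio3 cluster, which is expressed in embryonic and newborn tissues, had 85 entries in the table, of which 74 had reads in each library and 3 had none. All 85 together held 1.09 ± 0.0762% of reads, led by miR-127-3p at 3257 ± 245 CPM, miR-379-5p at 1738 ± 107 CPM and miR-411-5p at 1280.0 ± 29.7 CPM.

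Striated muscle miRNAs, which check the label of cardiomyocytes, summed to the highest level of 9 cell type lists. The 12 entries in the table held 6.54%, 6.70% and 6.89% of annotated reads in replicates 1, 2 and 3, or 6.71 ± 0.176%, and all 12 had reads in each library. Of the list's reads miR-499-5p made up 37.7% and miR-1-3p 32.5%, followed by miR-133a-3p with 20.9%, then miR-208a-5p with 7.46%. miR-1b is not on that list, and adding it after its level was seen gave 8.59 ± 0.277%. The cell type lists differ in size, from 2 to 12 entries in the table, so the order of their sums depends on how they were drawn.

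The abundant muscle miRNAs were steady between libraries, and some scarce ones were not. miR-1-3p, which restrains cardiomyocyte proliferation in mouse, had 70860, 76059 and 77298 reads, or 21829 ± 1298 CPM. miR-133a-3p had 48852, 47363 and 47813 reads, or 14016 ± 306 CPM. Its complementary entry miR-133c had 26668, 28125 and 27209 reads. Among the scarce members, miR-133a-5p had 151, 88 and 260 reads and miR-499-3p 21, 48 and 28. The miR-133 family held 2.22 ± 0.0362% with that entry and 1.42 ± 0.0347% without it.

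The skeletal muscle miRNA miR-206-3p, as well as miR-133b-3p, miR-486 and miR-208b-5p, were low beside miR-499-5p and miR-1-3p. miR-206-3p had 201, 203 and 218 reads, 360.4 times below miR-1-3p on average. miR-133b-3p, encoded beside miR-206, had 768, 563 and 810 reads. Like miR-133a-3p it is complementary to miR-133c, and how reads were assigned between these entries is not stated. miR-486, common to muscle and erythroid cells, had 1424, 1502 and 1454 reads. miR-208b-5p, from the slow myosin gene Myh7, had 369, 386 and 391 reads, far below miR-208a-5p from the fast myosin gene Myh6.

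Markers of other heart cells were also abundant. The fibroblast and mesenchymal list of 6 entries held 4.71 ± 0.207%, of which miR-21-5p, raised in activated fibroblasts but present in many cells including cardiomyocytes, made up 57.7%. miR-199a-5p had 56273, 48669 and 49268 reads, miR-199a-3p 10165, 10901 and 9417, and miR-214-3p, from the same transcript, 6770, 3489 and 7320. miR-214-3p in replicate 2 was well below both other libraries, while miR-199a-3p was highest there.

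The smooth muscle and pericyte list, miR-143 and miR-145, held 1.85 ± 0.0494%. miR-143-3p had 43827, 43048 and 40531 reads and miR-145-5p 21297, 18762 and 21532. The endothelial list held 0.507 ± 0.0616%, nearly all from miR-126a-3p, which supports vessel integrity and had 14790, 19271 and 15045 reads, highest in replicate 2. Their part in any value of the muscle miRNAs was not tested, since the libraries are bulk.

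Blood cell miRNAs were low, with 9 entries at 0.123 ± 0.00297%. miR-451-5p of red cells had 1955, 1739 and 2314 reads, miR-150-5p of lymphocytes 1698, 2121 and 1431, and miR-223-3p of myeloid cells 201, 199 and 145. miR-150-3p had none. The neuronal list held 0.667 ± 0.0244%, but 71.6% of it was miR-218a-5p and 17.9% miR-128-3p, and the neuron-defining miR-124-3p had 9, 3 and 3 reads and miR-124-5p had 0.

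Lists of tissues that the culture should lack were low but not all near the floor. Epithelial miRNAs, 11 entries led by miR-429, miR-200c-3p and miR-141-3p, held 0.00701 ± 0.00110%. miR-429 had 72, 54 and 60 reads and miR-200c-3p 62, 51 and 70, above the 3-read floor in every library. The 5 pluripotency entries in the table, led by miR-292-3p and miR-295-3p, summed to 2.72 ± 0.724 CPM, a few reads per library. The highest single entry of these lists was miR-122-5p, the main miRNA of hepatocytes, with 898, 1076 and 1110 reads or 300.4 ± 36.9 CPM, while miR-122-3p had 1, 0 and 0. The source of these reads was not tested.

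**Figure D3:**
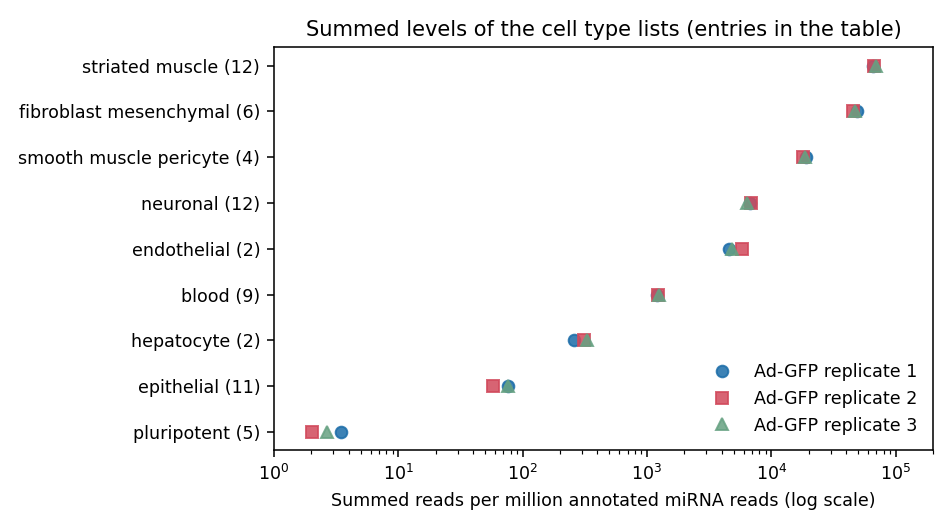
Summed level of each cell type list in reads per 1e+06 annotated miRNA reads (horizontal axis, log scale), with the number of entries in the table in parentheses; symbols are the 3 replicates. Striated muscle lies at 65365 to 68886 CPM in the 3 libraries, fibroblast at 45015 to 49148, smooth muscle at 17909 to 18871, and pluripotency entries at 2.02 to 3.47 CPM.

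Arm use was compared within each library, as 5p over 3p reads of a precursor with 0.5 added to each. Both arms were annotated for 232 precursors, and 164 had at least 100 reads over both arms in each library. Among these, the 5p arm was at least 10-fold above the 3p arm in all 3 libraries for 73 precursors, and the 3p arm at least 10-fold above the 5p arm for 42. For 27 others the 5p arm was higher in each library without reaching 10-fold in all 3, and for 11 the 3p arm in the same way. For 7 the arms were within 2-fold in each library, among them miR-1843a, whose higher arm changed between libraries. For the last 4 the higher arm also changed, and the arms were not within 2-fold in each library. The median precursor had 42.8 times as many reads on its higher arm as on its lower arm.

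Higher arms were more often 5p: 105 precursors had more 5p than 3p reads in each library and 54 more 3p reads. The 5p arms of the 164 precursors held 71.0 ± 1.44% of their reads, and the lower arms of all of them 4.05 ± 0.249%. The log2 ratio of a precursor had a median SD of 0.31 between libraries, so a 10-fold difference is far outside the spread for most precursors.

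**Figure D4:**
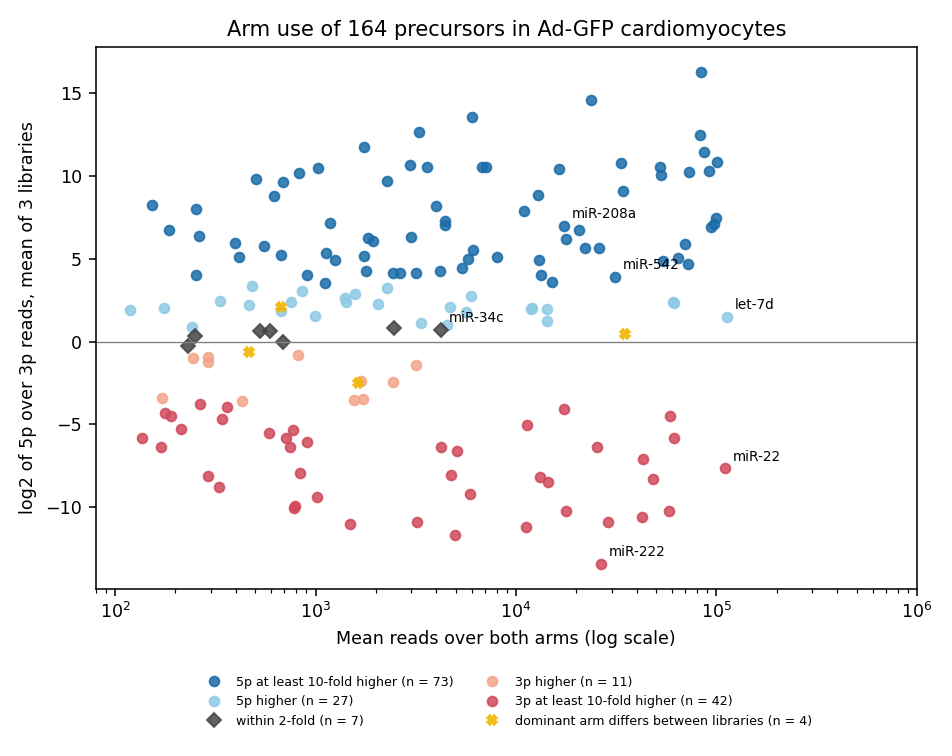
Log2 of 5p over 3p reads, as the mean of 3 libraries (vertical axis), against the mean reads over both arms (horizontal axis, log scale) for the 164 precursors with at least 100 reads in each library. Blue circles (5p) and red circles (3p) fill the outer ranges. Dark diamonds mark the 7 precursors within 2-fold, and yellow crosses the 4 others whose higher arm changed.

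The most lopsided precursors on the 5p side were let-7b, with 84939, 81861 and 84501 5p reads and 1, 1 and 0 3p reads (log2 ratio 16.30 ± 0.93), followed by miR-204 at 14.59 ± 1.65. miR-204 had 0, 0 and 3 3p reads, and miR-3590, miR-449a and miR-150 had 0 3p reads in every library. The ratios of these 5 precursors, and so their order, depend on the added 0.5, since each had a library without 3p reads. miR-3590-5p, with 6836, 5494 and 5861 reads, is complementary over 21 bases to miR-130a-3p, which had 12136, 9027 and 11714. How reads were assigned between them is not stated. miR-16 had 80279, 87783 and 79624 5p reads against 19, 12 and 11, miR-499 had a log2 ratio of 11.45 ± 0.57, and miR-26a of 10.86 ± 0.50.

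On the 3p side, miR-222 led with 3, 2 and 1 5p reads against 27579, 27523 and 24433 3p reads, a log2 ratio of −13.45 ± 0.52. miR-193b (−11.69 ± 0.19), miR-127 (−11.23 ± 1.23), miR-148a (0, 0 and 1 5p reads against 1430, 1644 and 1377 3p reads), miR-320 (−10.94 ± 1.65), miR-652 (−10.88 ± 0.64), miR-143 (−10.58 ± 0.09) and miR-328a (−10.26 ± 0.13) followed. The ratios of miR-148a and miR-320 depend on the added 0.5 in the same way, since each had a library without 5p reads. The ratios of miR-222, miR-127 and miR-193b also shift with the added 0.5, since their 5p reads were few. miR-193b had 1 5p read in each library, so its small SD reflects only the 3p reads. miR-22, whose 3p arm was the highest annotated entry, was less extreme, with 563, 549 and 510 5p reads and a log2 ratio of −7.67 ± 0.08.

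miR-208a is usually described by its 3p arm, the strand studied as a regulator of slow myosin in mouse heart. In these libraries the 5p arm was the abundant one, with 17727, 17063 and 16648 5p reads against 140, 110 and 149 3p reads, a log2 ratio of 7.02 ± 0.24. Its relative miR-208b leaned the same way by less, with 369, 386 and 391 5p reads against 103, 61 and 86 3p reads (2.22 ± 0.41). RefSeq gives miR-208a-3p with 18 bases and miR-208a-5p with 22. Whether the short entry affects its count was not tested.

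Other precursors also had most reads on the arm less often named. miR-542 had 31041, 29084 and 27941 5p reads against 2198, 1466 and 2224 3p reads (3.93 ± 0.34), and miR-132, known from neurons through its 3p arm, had 2053, 2246 and 1883 5p reads against 250, 212 and 190 3p reads (3.25 ± 0.19). miR-490, chosen after its values were seen, had 10427, 15653 and 8104 5p reads against 3212, 2648 and 2542 3p reads. In each of them the 5p arm was higher in all 3 libraries.

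Several precursors gave large amounts of both arms. let-7d was the precursor with the most reads, with 84121, 81591 and 83485 5p reads and 29177, 30005 and 28500 3p reads (log2 1.51 ± 0.06), so that let-7d-3p alone ranked 39th among all annotated entries. miR-199a had a log2 ratio of 2.34 ± 0.16, and miR-31a 53012, 48639 and 50418 5p reads against 10917, 9299 and 9082 3p reads. The 7 precursors within 2-fold in each library were miR-34c, miR-503, miR-1843a, miR-384, miR-483, miR-1306 and miR-330. miR-34c was the most abundant of these, with 2861, 2613 and 2410 5p reads against 1867, 1628 and 1323 3p reads (0.72 ± 0.13), and miR-1843a had the most even arms (−0.05 ± 0.18).

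Higher and lower arms also differed in their first base, a feature not used to class them. U opened 77 of 147 higher arms with a sequence (52.4%) and 25 of 146 lower arms (17.1%), while A opened 25.2% of higher and 36.3% of lower arms and C 15.6% and 30.8%. Human Argonaute 2 is known to prefer U or A as the first base of the strand it keeps. Over all annotated miRNAs with a sequence, U opened 37.2% of entries but carried 56.5 ± 2.66% of their reads, and entries of 22 bases made up 48.6% of entries and 68.9 ± 1.54% of the reads.

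Of the 4 precursors not within 2-fold in each library whose higher arm changed, miR-378a, miR-369 and miR-434 had an arm with a complementary entry. miR-369-5p had 1580, 0 and 1486 reads, and its complement miR-3578 had 0, 1644 and 0. miR-434-3p had 6, 4 and 1550 reads, and its complement miR-3543 had 2147, 2414 and 4. miR-339 had no such entry; it had 194, 84 and 311 5p reads against 283, 294 and 231 3p reads, with log2 ratios of −0.54, −1.80 and 0.43 in replicates 1, 2 and 3.

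The largest differences between the 3 Ad-GFP libraries sat in entries with a complementary partner. The table held 39 pairs of annotated entries with the same sequence or with sequences complementary over at least 17 bases and all but at most 2 of the shorter one, a criterion set after the values had been seen. They involved 77 entries with 21.3 ± 0.572% of annotated reads. Of the 312 entries with at least 100 mean reads, 16 differed over 8-fold between libraries, and all 16 had such a partner, against 33 of the other 296. RefSeq held a sequence for 290 of the 312, so no partner could be sought for the rest. After partners were summed, 0 of 294 entries differed over 8-fold, and 11 rather than 30 differed over 2-fold.

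In 9 of the 32 pairs with at least 100 mean reads, the member with most reads changed between libraries. All 9 were among the 10 pairs that are complementary or identical over 22 bases. The main member changed in 0 of the 22 pairs that match over 18 to 21 bases, some of them over the whole shorter entry. Proportions still moved there by up to 44.5 percentage points, in miR-3557-5p with miR-378a-3p, so this count does not show that shorter matches were steady. The tenth 22-base pair, miR-125b-5p and miR-3588, did not change. miR-125b-5p, a miRNA usually abundant in heart, had 241, 176 and 341 reads, and miR-3588 had 33857, 31491 and 41944. The miR-125 family held 0.768 ± 0.0749% without miR-3588 and 1.81 ± 0.254% with it. miR-133a-3p with miR-133c and let-7e-5p with miR-3596c kept their proportions within 1.95 and 1.81 percentage points.

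The changing pairs did not share 1 odd library. Replicate 2 stood apart for let-7a-5p, miR-369-5p, miR-181a-1-3p, let-7a-1-3p and miR-183-5p, replicate 3 for miR-434-3p and miR-501-3p, and replicate 1 for miR-378a-5p and miR-210-3p. miR-181a-1-3p had 731, 0 and 761 reads and its complement miR-3570 had 0, 801 and 0. miR-378a-5p had 854, 9243 and 8540 reads and its complement miR-3557-3p had 8632, 76 and 239. let-7a-1-3p, which is identical in sequence to let-7c-2-3p, had 3, 619 and 13 reads, and let-7c-2-3p had 807, 9 and 678.

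**Figure D5:**
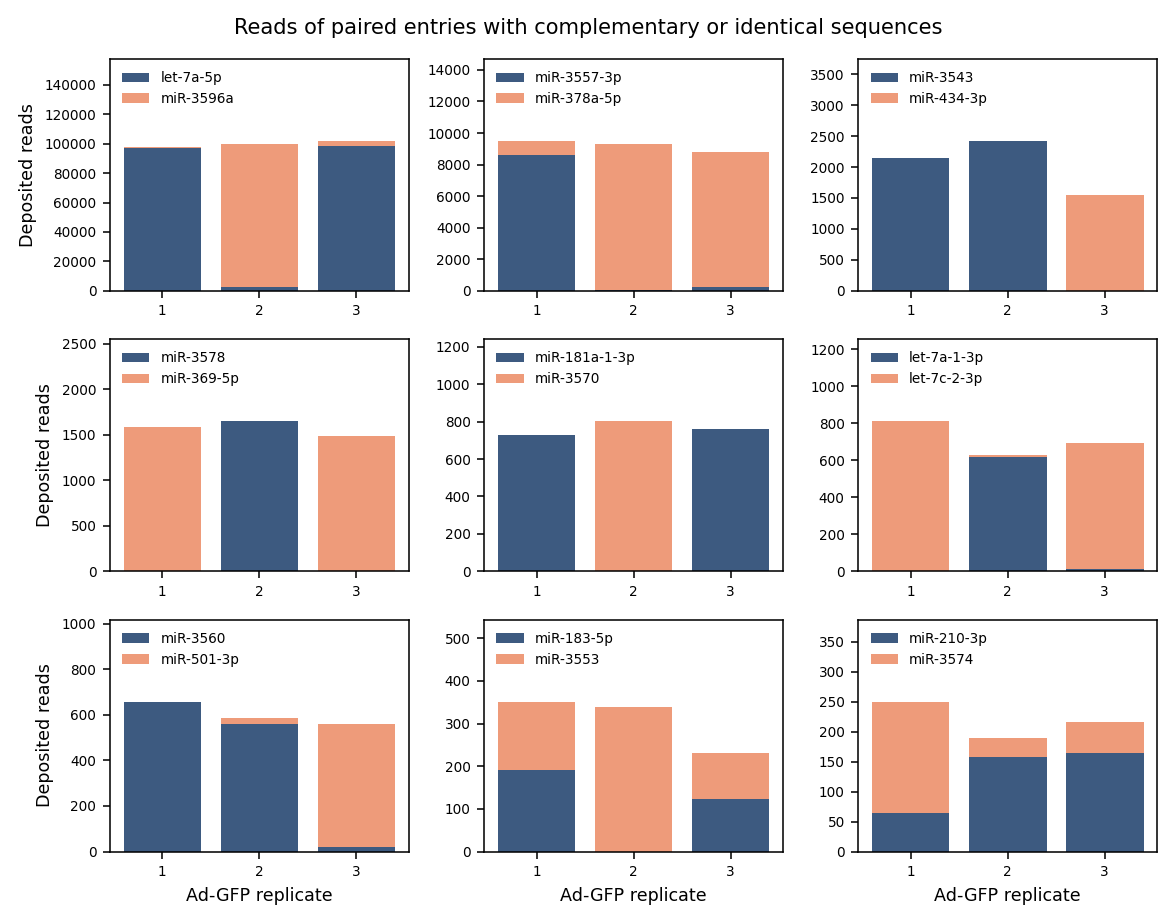
Deposited reads of the 9 pairs whose main entry changed between libraries, stacked (vertical axes, linear and scaled per panel) for replicates 1 to 3; the legend in each panel names the entries. The colours swap between libraries while the summed CPM had coefficients of variation of 2.28% to 20.1%; an example is let-7a-5p with miR-3596a at 98026, 99663 and 101791 summed reads.

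The most abundant pair was not steady when summed. miR-378a-3p, an abundant miRNA of muscle encoded within the metabolic co-activator gene Ppargc1b, had 9673, 76289 and 33 reads, and its complement miR-3557-5p had 96998, 95197 and 95810, so the sum had a coefficient of variation of 31.6%. The most abundant predicted entry of the table had 81600, 9108 and 79085 reads. Added to miR-378a-3p after its values were seen, it gave 91273, 85397 and 79118 reads, or 85263 ± 6079. A sequence of that predicted entry was not used here, so the sum is a description only.

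Entries without a partner varied less. Of the 263 with at least 100 mean reads, 11 differed over 2-fold between libraries, and replicate 2 was the lowest in 9 of the 11. How often replicate 2 was the lowest over all 263 was not counted. The 263 include entries without a sequence, for which no partner could be sought. miR-339-5p had the widest range, 3.83-fold, and miR-341 followed with 467, 271 and 133 reads. miR-365-3p had 952, 388 and 1020 reads and miR-214-3p differed 2.17-fold. At a limit of 1.5-fold, 37 such entries passed and replicate 2 was lowest in 27.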

How the data were processed

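Small RNA of Ad-GFP cultures was sequenced as 3 libraries (replicates 1 to 3). Per the labels' protocols, adaptors were ligated to total RNA with the MGIEasy kit, the product was reverse transcribed, amplified by PCR and size selected, and single-end reads were made on a BGI instrument. Bowtie2, DESeq2 and rn6 appear in the submitters' processing notes, without versions or roles. How reads matching several entries were assigned, whether strand was used, and any molecular identifiers are not given in the sources used here. Ligation and amplification differ between sequences, so levels of different miRNAs are compared only as reads, and mature miRNAs were not scaled for length.

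The authors deposited 1 table with read counts per miRNA, whole numbers that were not normalized. The authors also deposited RPM values; counts divided by them give library totals of 13.7, 14.3 and 13.8 M, of which annotated miRNAs were 24.5 ± 0.557%, and what those totals count is not stated. Per the file headers, the Ad-GFP columns are named Con, the short name for controls in the labels.

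From the counts, CPM per 1e+06 annotated reads, ranks, list shares and arm ratios (pseudocount 0.5, at least 100 reads over both arms in each library) were computed with Python 3.11.15, pandas 2.3.3, numpy 2.4.6 and scipy 1.17.1, and figures drawn with matplotlib 3.10.9. No test between groups was made: values are given per library and as mean ± SD. The share and arm scripts were tested on simulated data. Reads after PCR are not independent molecules, so Wilson intervals and the floor of 3 reads cover counting error only. Mature sequences came from RefSeq (GRCr8) and were matched by miRNA name, and no coordinates are given because that build differs from rn6.

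The libraries, lists and naming rule were chosen with earlier results of these data known. Named were the 25 highest entries by mean CPM, the 3 highest members of each family, cluster and cell type list with members of cell type lists at 0, precursors by abundance, balance, lopsidedness (at least 1000 reads in each library) or change of the higher arm, and the entries that varied most between libraries. Other entries were named after their values were seen, including minor arms, members that illustrate a spread and complementary partners. Alternatives were predicted entries counted in the total, a minimum of 10 reads, the deposited RPM values, families by seed, other arm minimums, a pseudocount of 5 and each library left out, with complementary entries summed or left out added after seeing the data.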

Additional observations from a re-analysis of the deposited data

Results flagged for a closer look

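Predicted miRNAs, which were outside the description of annotated entries, carried reads in every Ad-GFP library. They held 3.83%, 1.95% and 4.11% of all miRNA reads in replicates 1, 2 and 3, a mean of 3.3%, and 422 of the 769 predicted entries had at least 1 read in each library. The most abundant predicted entry averaged 56597.7 reads, with 81600, 9108 and 79085 reads in the 3 libraries. It alone made up 59.1%, 13.2% and 55.0% of the predicted reads, and its low library is the one in which miR-378a-3p was highest. The Ad-GFP group has 3 libraries, too few for a test of single outlying libraries.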

How the results depend on the processing

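No paired analysis was possible because the results describe 1 group and come from no test. Counting predicted entries in the total and the order moved the share of the 10 most abundant entries to 27.3% and the striated muscle share to 6.49%; summing complementary and identical entries moved them to 29.2% and 7.51%. With at least 1000 reads over both arms, 23 precursors rather than 42 had the 3p arm at least 10-fold higher and 2 rather than 7 had arms within 2-fold, since fewer precursors were counted. Leaving out each library gave 28.0 to 28.4% for the 10 most abundant entries, 20.5 to 21 entries for 50% of reads, 19.1 to 20.9% for let-7 and 6.62 to 6.79% for striated muscle. It gave 550 to 558 entries detected, and 73 to 74, 43 to 46 and 8 to 9 precursors with the 5p arm at least 10-fold higher, the 3p arm at least 10-fold higher and arms within 2-fold. The counts of detected entries and of precursors require every library kept, so leaving 1 out can only keep or raise them. Of the other 78 values, 7 moved by over 10% when a library was left out: let-7a-5p, by 48.0% to 28803 CPM without replicate 2, and, by 10.4% to 14.8%, miR-34a-5p, miR-24-3p, the families of miR-24, miR-29 and miR-34 with miR-449, and the pluripotency list. Summing moved 7 of the 78 beyond 1 SD between libraries and counting predicted entries 32. By that rule let-7a-5p counted as unmoved, since its SD was 16201 CPM, although summing took it from 19456 to 29152 CPM. The depth limits entries under about 10 reads, and how reads were assigned between complementary entries is not stated.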

Other observations

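Several abundant annotated miRNAs belong to none of the families, clusters or cell type lists above, and were picked for description after their levels were seen. miR-31a-5p had 53012, 48639 and 50418 reads in replicates 1, 2 and 3 of the Ad-GFP cultures, in the same range as miR-133a-3p. miR-149-5p had 29871, 31524 and 27941 reads, miR-652-3p 29607, 30568 and 26281, and miR-423-3p 24997, 26008 and 24375. Each of these was steady, with no library far from the others.

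miR-155-5p, known from activated immune cells and also present in fibroblasts, had 7538, 5406 and 7256 reads, while the white blood cell marker miR-142-3p had 186, 119 and 185 reads. miR-33-5p, encoded within the sterol regulator gene Srebf2, had 12441, 9009 and 11206 reads. miR-155-5p and miR-33-5p were both lowest in replicate 2.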
